A study of Mus musculus with 10 samples.

Results

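The mitochondrial ribosomal proteins are described here through the transcripts of their 78 nuclear genes in implanted colon tumor cells, compared between hosts on a control and on a high-fat diet. The genes were taken by name: they are the protein-coding genes of the GENCODE M21 annotation whose symbol begins with Mrpl or Mrps followed by a digit, 49 large subunit (Mrpl) and 29 small subunit (Mrps) genes among the 53379 genes of the count table. Of these, 77 were expressed well enough to test (48 large and 29 small) among 14337 genes tested. Mrpl53 was the exception, with 16 reads over all libraries.

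The line used, MC38, comes from a mouse colon carcinoma; it carried the fluorescent marker dTomato and was implanted in C57BL/6J mice. At day 21 after implantation the tumor cells were sorted as dTomato-positive and CD45-negative, CD45 being the common leukocyte surface protein, and polyadenylated RNA was sequenced. One group was 5 mice fed a control diet and the other was 5 mice fed a high-fat diet, with 1 library per mouse and the same implanted line in both. All tumors derive from 1 line, and the sources used here do not state diet composition or time on diet. Libraries held 16513388 to 18653705 counts, and the 78 genes together took 0.280% to 0.368% of each. The median member had 6174 reads over the 10 libraries, and single members had between 16 and 19859.

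The mitochondrial ribosome sits in the mitochondrial matrix and makes the few proteins encoded by mitochondrial DNA, all of them core parts of the respiratory chain and ATP synthase. Its RNAs are made in the mitochondrion, but every protein is encoded in the nucleus, made in the cytosol and imported. Part of the proteins have counterparts in bacterial ribosomes, and the rest were added during the evolution of mitochondria. The small subunit reads the messenger RNA and the large subunit joins the amino acids. Symbols do not follow the structure everywhere: Mrps30 and Mrps18a are built into the large subunit, and the protein of Mrps36 is now known as a subunit of the alpha-ketoglutarate dehydrogenase complex.

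Because these genes sit on many chromosomes and are known for shared promoter elements, 5 promoters are shown, each with 1 element. They are the 250 bases before the start site in the RefSeq promoter table for GRCm38.p6, on the gene's strand. Capitals mark the match to the motif of NRF1 (Mrps21 and Mrpl12), of the ETS factor GABPA (Mrps18c) or of YY1 (Mrps11 and Mrpl36), which are transcription factors known for nuclear genes of mitochondrial proteins. In the last 3 the match is on the opposite strand.
Mrps21: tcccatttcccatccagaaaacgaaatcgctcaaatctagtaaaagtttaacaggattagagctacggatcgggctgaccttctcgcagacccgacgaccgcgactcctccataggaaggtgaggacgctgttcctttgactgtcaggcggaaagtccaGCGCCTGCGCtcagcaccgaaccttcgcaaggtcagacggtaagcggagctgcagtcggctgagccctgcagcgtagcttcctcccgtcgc
Mrpl12: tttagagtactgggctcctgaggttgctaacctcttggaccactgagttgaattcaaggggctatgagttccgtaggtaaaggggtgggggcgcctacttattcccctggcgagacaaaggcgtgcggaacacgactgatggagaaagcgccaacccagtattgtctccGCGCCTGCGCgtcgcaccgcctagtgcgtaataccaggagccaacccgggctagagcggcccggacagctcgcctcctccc
Mrps18c: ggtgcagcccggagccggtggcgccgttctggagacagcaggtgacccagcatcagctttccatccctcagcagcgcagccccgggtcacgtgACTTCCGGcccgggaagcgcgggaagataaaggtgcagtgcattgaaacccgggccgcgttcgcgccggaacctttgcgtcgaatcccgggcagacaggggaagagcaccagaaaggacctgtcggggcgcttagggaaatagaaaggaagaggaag
Mrps11: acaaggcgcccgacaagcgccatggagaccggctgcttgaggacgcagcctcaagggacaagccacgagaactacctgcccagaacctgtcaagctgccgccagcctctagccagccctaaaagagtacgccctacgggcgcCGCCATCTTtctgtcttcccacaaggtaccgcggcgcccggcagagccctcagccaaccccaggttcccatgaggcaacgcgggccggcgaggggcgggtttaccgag
Mrpl36: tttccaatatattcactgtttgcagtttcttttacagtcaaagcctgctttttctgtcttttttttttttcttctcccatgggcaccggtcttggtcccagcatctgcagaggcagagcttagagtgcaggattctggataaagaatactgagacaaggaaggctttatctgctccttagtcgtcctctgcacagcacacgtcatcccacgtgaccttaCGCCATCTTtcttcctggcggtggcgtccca

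These windows lie at chr3:95871515-95871764 on the minus strand (Mrps21), chr11:120484387-120484636 on the plus strand (Mrpl12), chr5:100798509-100798758 on the plus strand (Mrps18c), chr7:78782881-78783130 on the plus strand (Mrps11) and chr13:73330759-73331008 on the plus strand (Mrpl36). The RefSeq table held a promoter for 69 of the 78 genes, from 250 bases before to 50 after the start. Searched on both strands, the NRF1 motif (GCGC, any base, then TGCGC) was in 13 of them (18.8%), against 12.04% of the promoters of all protein-coding genes tested. The GABPA motif CCGGAAGT was in 12 (17.4%, against 9.69%), and the YY1 motif AAGATGGCG in 8 (11.6%, against 3.78%). The 3 motifs were searched separately, overlapping matches counting for each, and at least 1 was in 31 of 69 promoters (44.9%, against 23.5%), 22 of 43 for the large and 9 of 26 for the small subunit. A match is a run of letters and does not show that the factor was bound.

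Many members lie head to head with a neighbour on the opposite strand. The annotated 5' ends of 33 of the 78 genes (42.3%) lay within 1000 bases of that of another protein-coding gene pointing the other way, against 17.0% of protein-coding genes tested. This was so for 24 of 49 large subunit genes and 9 of 29 small subunit genes. One such pair, Mrps11 and Mrpl46, joins the subunits, with annotated 5' ends 412 bases apart on chromosome 7. Their RefSeq start sites are 42 bases apart, so the Mrps11 window above also covers the RefSeq start of Mrpl46. Mrps11 had a log2 change of 0.10 (SE 0.10) and Mrpl46 of -0.02 (SE 0.14). The annotated 5' end of Mrpl36 is 29 bases from that of Ndufs6, a complex I gene with a change of 0.07 (SE 0.10). That end of Mrpl36 is at base 73328513, while its RefSeq start site is at 73331009, so the Mrpl36 window above does not cover it. By annotated ends, Mrps12 lies 172 bases from the mitochondrial seryl-tRNA synthetase gene Sars2, at 0.06 (SE 0.09). Of 30 distinct pairs with both genes tested, the change had the same sign in 15, and no partner passed the threshold in edgeR.

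Measured transcript levels differed widely between members, although their proteins are assembled into 1 particle. On the length of the principal coding transcript, the median level was 26.2 CPM per kb (read counts scaled to library size, per kilobase) over 49 large subunit genes and 17.9 over 29 small subunit genes. The highest large subunit genes were Mrpl52 (106 CPM per kb) and Mrpl54 (96.3), both mitochondria-specific proteins. The highest small subunit genes were Mrps6 (104) and Mrps21 (73.6), both with bacterial counterparts. The lowest were Mrpl53 (0.134) and Mrpl23 (2.18), a protein of the peptide exit tunnel, in the large subunit, and Mrps36 (3.51) and Mrps33 (3.63) under small subunit symbols. With the union of all annotated exons as the length the medians were 16.6 and 10.1 CPM per kb, and Mrpl34 and Mrpl54 were then the highest of the large subunit. Low values are open to doubt where sequence is shared: 36.2% of the 50-base windows of Mrps36 and 21.0% of those of Mrps33 also occur in transcripts of other loci, and Mrpl53 overlaps Gm42688 on its own strand. Genes of the cytosolic ribosome, also 1 particle, lay far apart too. Rpl35 stood at 0.967 and 0.789 CPM and Rpl8 at 1529 and 1468 CPM (control and high-fat means). Levels are thus hard to compare between genes, and the part of read mapping and counting in them was not tested.

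**Figure D1:**
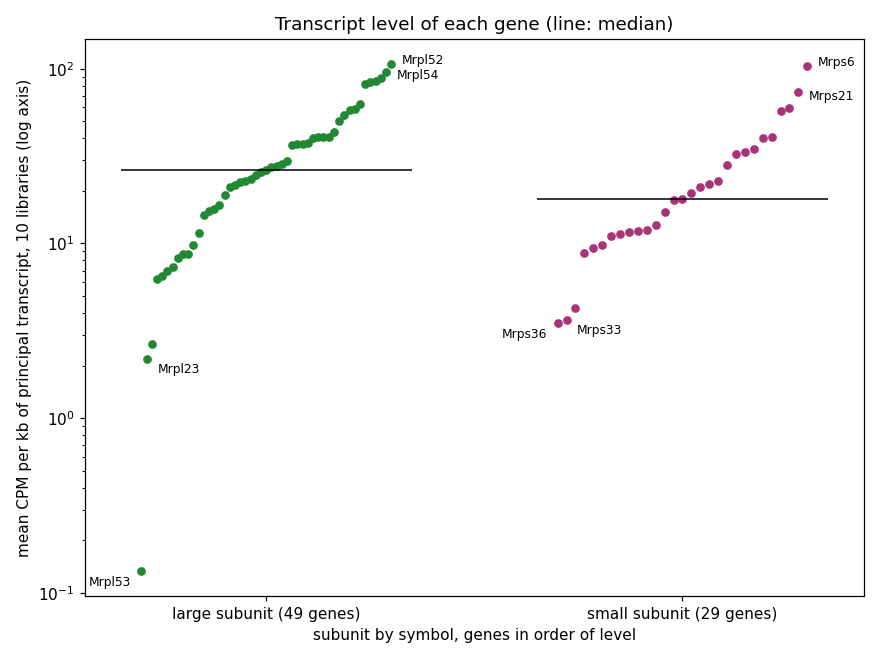
Mean CPM per kilobase of principal transcript over 10 libraries (log axis) for the 49 large and 29 small subunit genes, each point 1 gene in order of level and each line the subunit median of 26.2 or 17.9. Mrpl53 at 0.134 lies far below every other gene, and the quartiles are 14.5 and 40.6 (large) and 11.3 and 33.3 (small).

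On the high-fat diet no gene of the mitochondrial ribosome passed the threshold in either direction. The quasi-likelihood test of edgeR, adjusted over 14337 genes by Benjamini-Hochberg, called 0 of 77 at an adjusted p under 0.05, where 0.0628% of all genes tested were called (9 genes). DESeq2 and limma-voom also called 0 of the 77, where they called 2.06% and 0.0349% of all genes tested. At an unadjusted p under 0.05 there were 2 members, Mrpl24 and Mrps6, both with positive changes (the same number with DESeq2 and with limma-voom), against 12.1% of all genes tested with edgeR, 12.4% with DESeq2 and 11.9% with limma-voom. Changes are log2 differences, high-fat minus control, from that fit. They ran from -0.28 for Mrps31 to 0.34 for Mrps36, fitted folds of 0.822 to 1.26, with a median standard error of 0.098. In 49 of the 77 the change was positive (63.6%, against 51.4% of all genes tested), and the median was 0.051 against 0.0057 for all genes. The share moved with single libraries: without high-fat library 5 it was 38 of 77 (49.4%, against 51.0% of all genes tested) with a median of -0.0044, and with any other library left out it was 45 to 64. The diet groups overlapped for all 77 members tested, while 2.18% of all genes had groups that did not overlap.

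The smallest p among large subunit genes was that of Mrpl24, whose bacterial counterpart starts the assembly of its subunit (ENSMUSG00000019710.13, chromosome 3, 87919506 to 87923672). It stood at 33.6, 36.4, 33.2, 32.3 and 39.6 CPM in control libraries 1 to 5 and at 46.4, 39.1, 45.7, 36.9 and 39.7 CPM in high-fat libraries 1 to 5. High-fat libraries 1, 3 and 5 were above every control, and the other 2 lay within the control range. The log2 change was 0.25 (SE 0.09, edgeR adjusted p = 0.271). Of its exon bases, 26.3% lie opposite exons of Rrnad1, which had a change of 0.24 (SE 0.15), and the strand setting of the counts is unknown. Reads of these overlapping genes cannot be told apart.

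Further large subunit genes with positive changes were Mrpl42, a mitochondria-specific protein, and Mrpl35 and Mrpl36, with bacterial counterparts. Mrpl42 stood at 52.1, 56.5, 55.3, 52.6 and 60.3 CPM in controls and at 73.4, 52.6, 55.1, 58.1 and 71.5 CPM on the high-fat diet, a change of 0.17 (SE 0.10). Mrpl36 stood at 32.7 to 38.6 CPM in controls and at 41.3, 36.6, 35.5, 34.96 and 49.5 CPM on the high-fat diet (0.16, SE 0.10). In both genes it was high-fat libraries 1 and 5 that stood above all controls, and the rest lay among them. Mrpl35 stood at 32.0 to 36.5 CPM in controls and at 37.8, 36.0, 35.1, 35.01 and 47.7 CPM on the high-fat diet, a change of 0.15 (SE 0.09) that was 0.065 without high-fat library 5.

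The large subunit genes with negative changes differed less. Mrpl3, which lies near the site of peptide bond formation, stood at 59.5 ± 3.0 CPM (SD, n = 5) in controls and 56.1 ± 6.7 on the high-fat diet, with a change of -0.08 (SE 0.08). Mrpl17, of the exit tunnel region, changed by -0.08 (SE 0.07) and Mrpl1, of the mobile stalk that helps release transfer RNA, by -0.10 (SE 0.10). Mrpl12, the stalk protein that recruits translation factors, stood at 81.5, 90.6, 70.2, 77.2 and 72.4 CPM in controls and at 83.8, 61.5, 62.2, 69.7 and 101 CPM on the high-fat diet. Its high-fat libraries thus held both the highest and the 3 lowest values of the 10, and its change of -0.05 (SE 0.13) lay within its standard error. Mrpl58, a peptidyl-tRNA hydrolase that frees stalled ribosomes and is built into the large subunit, had a change of 0.07 (SE 0.10).

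The smallest p among small subunit genes was that of Mrps6 (ENSMUSG00000039680.9, chromosome 16, 92058270 to 92112227). It stood at 80.9, 81.0, 81.8, 87.8 and 70.6 CPM in controls and at 98.3, 82.6, 87.8, 88.5 and 117 CPM on the high-fat diet. High-fat libraries 1, 4 and 5 were above every control. The change was 0.24 (SE 0.10, edgeR adjusted p = 0.338). The inositol transporter gene Slc5a3 overlaps the Mrps6 locus on the same strand. It had a change of 0.51 (SE 0.13, edgeR adjusted p = 0.172), and its part in the Mrps6 value was not tested.

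Mrps21 stood at 32.4, 30.3, 31.1, 31.1 and 39.6 CPM in controls and at 49.02, 32.9, 32.5, 37.3 and 43.0 CPM on the high-fat diet (0.24, SE 0.12). Mrps7, of the head of the small subunit, stood at 67.2, 74.6, 73.0, 78.4 and 72.9 CPM in controls and at 88.7, 75.8, 73.2, 77.1 and 101 CPM on the high-fat diet (0.19, SE 0.09). For both, high-fat libraries 1 and 5 were the only ones above all controls. Mrps12, a protein of the decoding centre, stood at 27.3 ± 1.8 CPM and 29.8 ± 4.7 CPM (SD, n = 5), a change of 0.12 (SE 0.11). Mrps36 stood at 2.18 ± 0.27 and 2.75 ± 0.55 CPM, with 4 of 5 high-fat libraries above all controls (0.34, SE 0.18, edgeR adjusted p = 0.503). That gene is low, with 425 reads over all libraries.

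The most negative change of all members was that of Mrps31, a mitochondria-specific protein. It stood at 20.4, 23.4, 12.2, 17.9 and 22.5 CPM in controls and at 20.4, 14.7, 12.8, 13.8 and 17.7 CPM on the high-fat diet (-0.28, SE 0.18, edgeR adjusted p = 0.574), and every high-fat library lay within the control range. Mrps35, also mitochondria-specific, stood at 48.7 ± 5.4 and 43.5 ± 6.4 CPM (-0.16, SE 0.11). Mrps5, at the entry of the messenger RNA channel, stood at 45.6 ± 1.6 and 42.1 ± 3.9 CPM (-0.11, SE 0.07), with high-fat libraries 2, 3 and 4 below all controls and the other 2 at 44.5 and 46.9 CPM. Mrps9 stood at 31.4 ± 1.8 and 28.6 ± 3.8 CPM (-0.13, SE 0.09) and Mrps2 at 59.9 ± 2.9 and 57.3 ± 3.0 CPM (-0.06, SE 0.06), each over 5 libraries per diet.

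The 3 paralogs of bacterial protein S18 take separate places in the ribosome and had changes of both signs, none of which passed. Mrps18a, in the large subunit, stood at 50.6 ± 3.7 CPM in controls and 55.0 ± 6.6 on the high-fat diet (0.12, SE 0.09). Mrps18b stood at 19.9 ± 2.0 and 18.6 ± 3.0 CPM (-0.10, SE 0.11), with 30.5% of its exon bases opposite the noncoding gene Gm16279. Mrps18c, the one that holds the bacterial position, stood at 12.6 ± 1.1 and 12.3 ± 1.7 CPM (-0.04, SE 0.11). Mrps30, the other large subunit protein with a small subunit symbol, stood at 32.2 ± 3.5 and 30.6 ± 3.3 CPM (-0.07, SE 0.10).

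**Figure D2:**
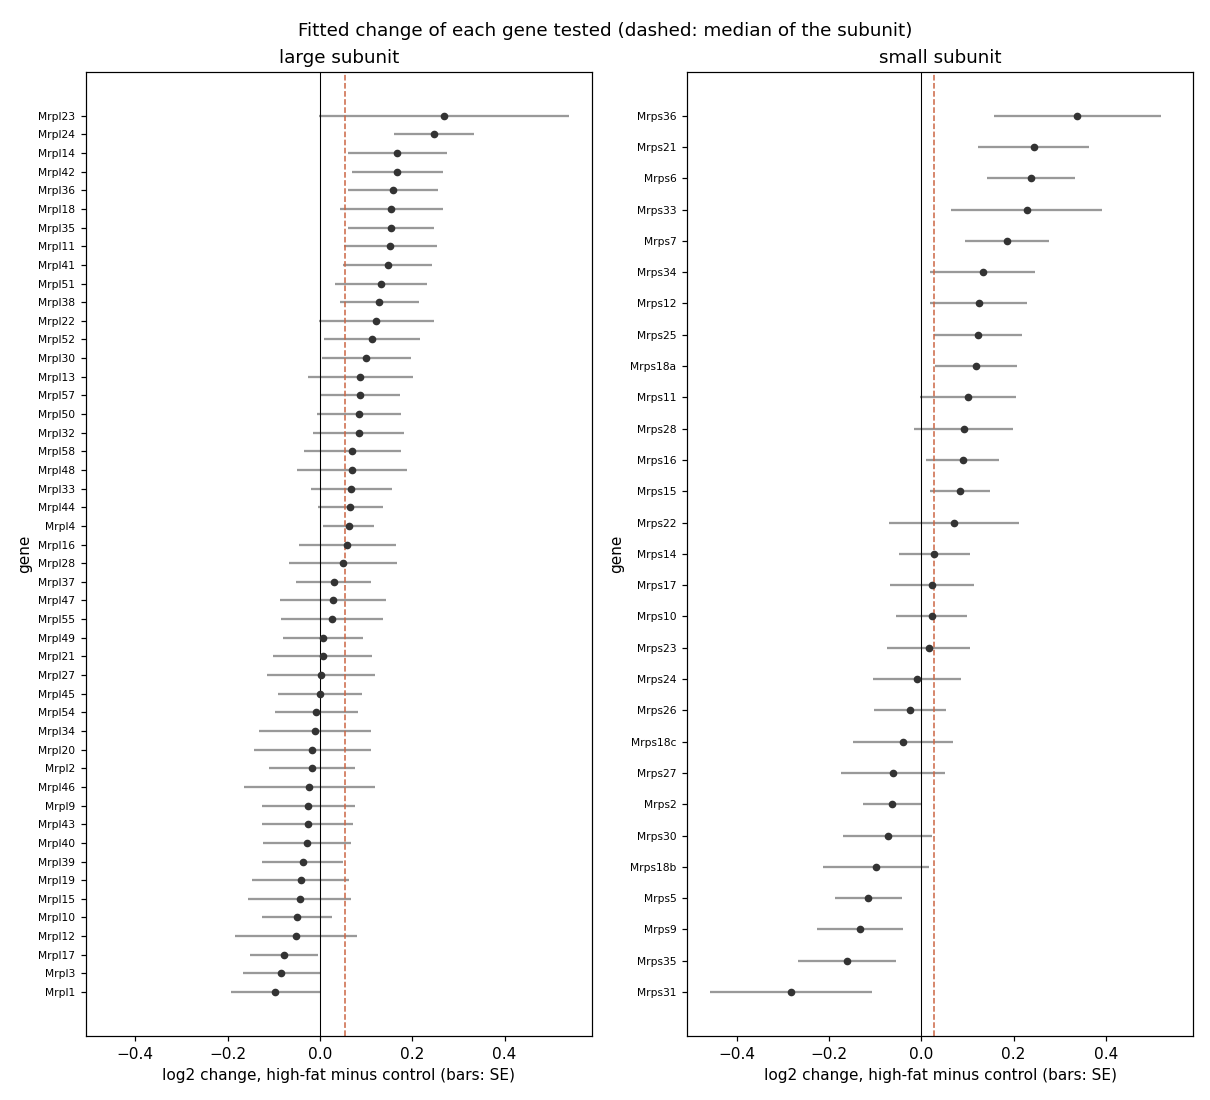
Fitted log2 change, high-fat minus control, of the 48 large and 29 small subunit genes tested, each point 1 gene with its standard error as a bar and the dashed line the subunit median (0.055 and 0.028). Both subunits spread around 0, from -0.10 to 0.27 in the large and from -0.28 to 0.34 in the small subunit, and no gene passed the threshold.

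The share of positive changes was close in the 2 subunits. Of 48 large subunit genes 31 had a positive change (64.6%) with a median of 0.055, and of 29 small subunit genes 18 (62.1%) with a median of 0.028. The difference of the medians, 0.027, turned negative when 1 of several libraries was left out, as low as -0.032 without high-fat library 5, where 23 large and 15 small subunit genes had positive changes and the large subunit median was -0.029. The mean log2 CPM of the large subunit minus that of the small was 0.379, 0.363, 0.398, 0.326 and 0.402 in controls and 0.376, 0.364, 0.380, 0.374 and 0.411 on the high-fat diet. The range was 0.326 to 0.402 in controls and 0.364 to 0.411 on the high-fat diet, so the groups overlapped, with means of 0.374 ± 0.031 and 0.381 ± 0.018 (SD, n = 5). Per kilobase, which moves every library by the same amount, the offset was 0.397 ± 0.031 and 0.404 ± 0.018 on the log2 scale.

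Placing proteins by structure (Mrps30 and Mrps18a in the large subunit, Mrps36 left out) gave 32 of 50 positive with a median of 0.055 and 16 of 26 with a median of 0.025. The large minus small difference in mean log2 CPM was then smaller, at 0.283 ± 0.031 in controls and 0.299 ± 0.013 on the high-fat diet (SD, n = 5). Divided by origin, large subunit genes with a bacterial counterpart had a median change of 0.039 (19 of 30 positive) and mitochondria-specific ones 0.068 (13 of 20). In the small subunit these were 0.056 (11 of 16) and -0.0040 (5 of 10), with Mrps31 and Mrps35 in the last group. The differences between these medians were not tested.

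The genes stood high or low together from library to library, and the libraries of the high-fat diet differed more among themselves than the diets did on average. Of the 77 genes tested, 70 lay above their own median over the 10 libraries in high-fat library 1 and 74 in high-fat library 5, but 13 in high-fat library 2 and 10 in high-fat library 3. High-fat library 4 held 35 such genes, and control libraries 1 to 5 held 45, 56, 14, 25 and 43. Over all genes tested this share lay between 48.4% and 52.4% in every library. In a bulk sample, fewer cells of a type and less RNA per cell cannot be told apart.

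The mean log2 CPM of the large subunit was 5.20, 5.22, 5.11, 5.11 and 5.20 in controls and 5.34, 5.07, 5.05, 5.16 and 5.43 on the high-fat diet. That of the small subunit was 4.82, 4.86, 4.72, 4.78 and 4.80 in controls and 4.96, 4.71, 4.67, 4.79 and 5.02 on the high-fat diet. In both subunits high-fat libraries 5 and 1 were the highest of the 10 and high-fat libraries 3 and 2 the lowest, with the controls between them. The group means were 5.17 ± 0.054 and 5.21 ± 0.17 for the large subunit and 4.79 ± 0.052 and 4.83 ± 0.15 for the small (SD, n = 5), so the spread was wider on the high-fat diet in both.

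Gene by gene, the SD of log2 CPM was larger on the high-fat diet in 71 of 77 members, against 58.9% of all genes tested (47 of 48 large and 24 of 29 small). The median SD of the members was 0.108 in controls and 0.196 on the high-fat diet, where that of all genes was 0.161 and 0.189. Without high-fat library 5 the count was 61 of 77, and 48.5% of all genes. The highest of the 10 libraries was high-fat 5 for 47 members (17.7% of all genes), and high-fat 1 or 5 for 64 (28.7% of all genes). The lowest was high-fat 2 or 3 for 47 members (23.7% of all genes). These libraries were picked out after the values were seen, so the counts describe them and test nothing.

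**Figure D3:**
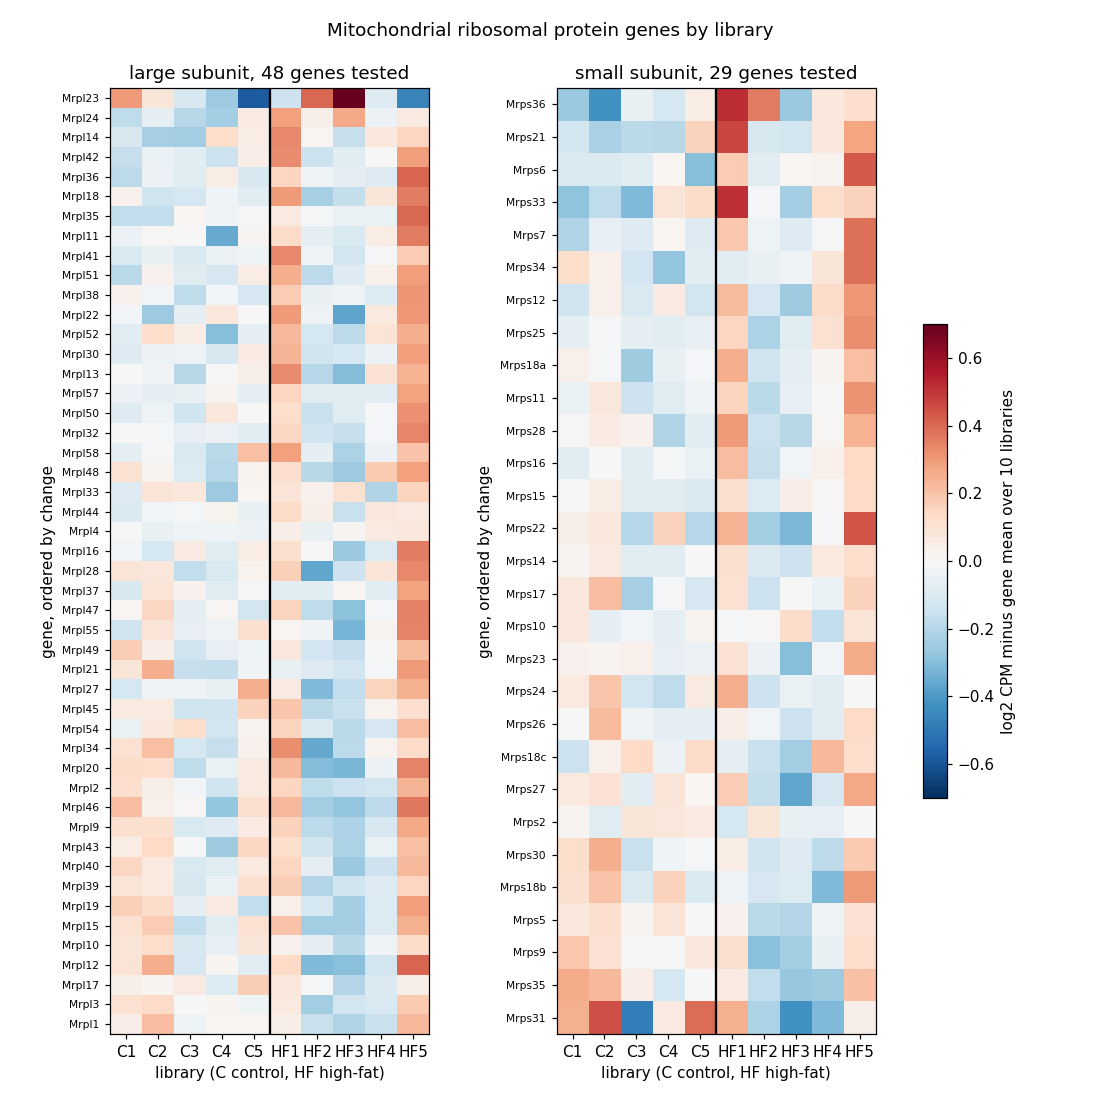
Deviation of log2 CPM from each gene's mean over 10 libraries for the 48 large (left) and 29 small (right) subunit genes tested, with genes in rows ordered by change and libraries in columns (C control, HF high-fat); colours stop at 0.7 either side. The HF1 and HF5 columns are red and the HF2 and HF3 columns blue for most genes of both subunits, and the 5 control columns are paler.

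Proliferation genes were likewise highest in high-fat libraries 5 and 1 and lowest in high-fat library 2. The mean log2 CPM of 8 of them, among them Mki67 and Top2a, was 7.31, 6.997, 7.10, 7.18 and 7.43 in high-fat libraries 1 to 5 and 7.10 to 7.29 in controls. High-fat library 3 was level with the lowest control. The SD of these genes was larger on the high-fat diet in 8 of 8, against 58.9% of all genes tested. Their part in the spread of the ribosomal genes was not tested. The messenger RNAs encoded in mitochondrial DNA, which this ribosome translates, stood differently. The mean log2 CPM of the 7 tested was 11.3, 11.6, 12.1, 11.3 and 10.4 in high-fat libraries 1 to 5 and 11.02, 9.97, 11.2, 11.4 and 10.3 in controls. High-fat libraries 3 and 2, the lowest for the ribosomal proteins, were the highest here, and high-fat library 5 was among the 3 lowest. All 7 had positive changes (median 0.59) and 0 of 7 passed in edgeR, DESeq2 or limma-voom, where 0.0628%, 2.06% and 0.0349% of all genes tested did. At an unadjusted p under 0.05 there was 1 of 7 in each (14.3%), against 12.1%, 12.4% and 11.9% of all genes tested. The complex I gene mt-Nd1 changed by 0.70 (SE 0.27), the cytochrome oxidase gene mt-Co1 by 0.62 (SE 0.32) and mt-Nd2 by 0.57 (SE 0.29). The other 6 mitochondrial mRNAs of the list had a count of 0 in all libraries. The sources used here give no reason, so these zeros do not show that the genes were silent. The 7 tested therefore stand for only part of the mitochondrial mRNAs.

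The proteins of the cytosolic ribosome, made from another gene set, were not more spread on the high-fat diet than in controls. Their median SD of log2 CPM was 0.239 in controls and 0.209 on the high-fat diet, both above the 0.108 and 0.196 of the members. Of 80 tested, 36 had the larger SD on the high-fat diet (45%, against 58.9% of all genes tested). Positive changes were seen in 46 (57.5%, against 51.4%), with a median of 0.017. In edgeR, DESeq2 and limma-voom 0 passed, against 0.0628%, 2.06% and 0.0349% of all genes tested. At an unadjusted p under 0.05 there were 0 in each, against 12.1%, 12.4% and 11.9%. Control library 2 (5.37) and high-fat library 1 (5.32) had the highest mean log2 CPM of this list and high-fat library 5 was at 5.16, in the range of the controls from 5.01 to 5.37. The 3 genes with the smallest p were Rpl15 (0.17, SE 0.09), Rpl28 (-0.16, SE 0.09) and Rpl36al (0.21, SE 0.13).

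**Figure D4:**
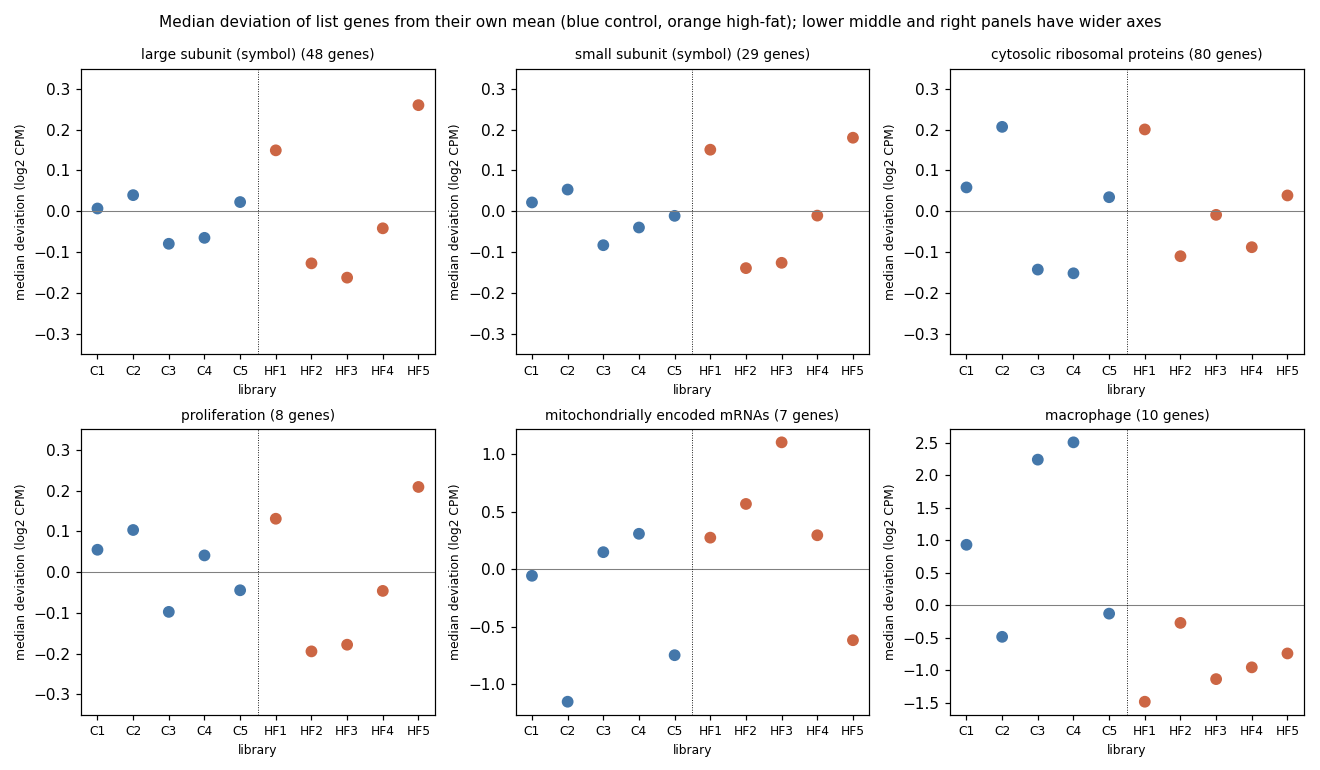
Median deviation of the genes of 6 lists from their own mean log2 CPM in each library (C control, HF high-fat; blue and orange points, 1 per library; the lower middle and right panels have wider axes). Both subunits and the proliferation list are highest in HF5 and HF1 and lowest in HF2 and HF3, the mitochondrially encoded mRNAs are highest in HF3, and the macrophage list is highest in C3 and C4.

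Markers of other cells were checked as summed CPM. Macrophage markers (10 genes, none at 0 in all libraries) ran from 59.5 to 397 in controls, with control libraries 3 and 4 highest, and from 29.5 to 62.5 on the high-fat diet. All 10 had negative changes (median -2.40), and 3 had groups that did not overlap (30%, against 2.18% of all genes). In edgeR, DESeq2 and limma-voom 10, 10 and 9 had an unadjusted p under 0.05 (12.1%, 12.4% and 11.9% of all genes tested). At an adjusted p under 0.05 it was 0, 8 and 0 (0.0628%, 2.06% and 0.0349% of all genes). Macrophage markers thus stood lower on the high-fat diet, and their part in the members' changes was not tested. Pan-leukocyte markers (7 genes) ran from 18.0 to 177 and from 13.8 to 48.6. T and NK cell markers (7 genes, 2 of them passing the filter) ran from 0.212 to 15.5 in controls and from 1.22 to 9.53 on the high-fat diet. Endothelial markers (5 genes) ran from 17.7 to 25.6 and from 21.5 to 29.9, and adipocyte markers (5 genes, of which Fabp4 passed the filter) from 7.27 to 20.3 and from 3.18 to 9.11. None of these markers was at 0 in all libraries. Among the controls, libraries 3 and 4 also had the lowest ribosomal protein means of both subunits, and the part of leukocyte RNA in this was not tested. Without these 2 libraries, a choice made after the data were seen, 0 of 77 members passed, 24 large and 15 small subunit genes had positive changes, and their medians were 0.0041 and 0.011. The epithelial markers that a carcinoma line might carry were nearly absent (8 genes, 1.17 to 6.23 summed CPM over the 10 libraries). The 6 fibroblast markers summed to 6157 to 12246 CPM, most of it from Col3a1. Mean CPM in controls and on the high-fat diet was 7992 and 7603 for Col3a1, 967 and 1036 for Dcn and 367 and 400 for Pdgfra. It was 158 and 116 for Col1a1, 19.2 and 9.15 for Lum and 8.71 and 14.8 for Col1a2.

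Genes that build, modify and serve this ribosome were taken as companion lists. Of all genes tested, 51.4% had positive changes, with a median of 0.0057, to be set beside the counts of each list. No gene of any of these lists passed in edgeR, DESeq2 or limma-voom, where 0.0628%, 2.06% and 0.0349% of all genes tested did. At an unadjusted p under 0.05 each tool had 1 gene in the assembly list, 1 among the translation factors, 1 among the transcription factors of these promoters and 0 in the others, where 12.1% (edgeR), 12.4% (DESeq2) and 11.9% (limma-voom) of all genes tested were under it. Proteins of the same ribosome under other symbols had positive changes in 2 of 5. Dap3, a GTP-binding protein of the small subunit, stood at 89.3 ± 5.9 and 90.9 ± 7.8 CPM (0.02, SE 0.07), and Ptcd3, an RNA-binding one, at 73.5 ± 6.3 and 71.4 ± 8.0 CPM (-0.04, SE 0.09). Chchd1 changed by 0.08 (SE 0.15) and Aurkaip1 by -0.06 (SE 0.12). The SD was larger on the high-fat diet in 5 of 5, against 58.9% of all genes tested. The median SD of log2 CPM of these genes was 0.166 in controls and 0.241 on the high-fat diet.

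Of 25 assembly and rRNA modification genes 18 had positive changes, with a median of 0.049. The smallest p was that of Mettl17, an assembly factor of the small subunit, which stood at 13.1, 11.1, 13.1, 11.6 and 11.2 CPM in controls and 14.1, 14.3, 15.999, 13.2 and 12.4 CPM on the high-fat diet (0.22, SE 0.10, edgeR adjusted p = 0.383). High-fat libraries 3 and 2 were the highest for this gene, unlike the ribosomal proteins. Mtg2, a GTPase of large subunit assembly, changed by 0.17 (SE 0.08), and Rpusd3, a pseudouridine synthase family member, by 0.28 (SE 0.14).

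Of 19 translation factors 9 had positive changes, with a median of -0.026. Mtif2, the initiation factor that brings the first transfer RNA, stood at 30.7, 29.5, 28.7, 28.999 and 30.9 CPM in controls and 34.2, 29.6, 35.4, 35.2 and 35.7 CPM on the high-fat diet (0.19, SE 0.07, edgeR adjusted p = 0.290). High-fat library 2 lay within the control range and the other 4 lay above it. Gfm2, which helps recycle ribosomes, changed by 0.14 (SE 0.09), the elongation factor Tufm by 0.04 (SE 0.14), and Lrpprc, which stabilises mitochondrial mRNAs, by -0.14 (SE 0.10).

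Of 10 mitochondrial transcription and DNA genes 7 had positive changes, with a median of 0.039. The packaging and transcription factor Tfam changed by -0.11 (SE 0.09), the RNA polymerase Polrmt by 0.03 (SE 0.07), the polymerase subunit Polg2 by 0.23 (SE 0.18), and the termination factor family gene Mterf1a by 0.24 (SE 0.21). Of 8 transcription factors linked to the promoters of these genes 2 had positive changes, with a median of -0.071. Myc, which activates many ribosome genes, stood at 266, 273, 165, 182 and 227 CPM in controls and at 145, 164, 152, 143 and 243 CPM on the high-fat diet (-0.39, SE 0.18, edgeR adjusted p = 0.405), and high-fat library 5 was the one high-fat library inside the control range. The coactivator Ppargc1b stood at 7.19 ± 0.26 and 6.28 ± 0.41 CPM (-0.19, SE 0.10, edgeR adjusted p = 0.459). Its groups did not overlap, the 1 such gene of the 8 (12.5%, against 2.18% of all genes tested). Gabpb1, the partner of GABPA, changed by -0.14 (SE 0.09).

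Shorter transcripts had more positive changes, among the members and among all genes. Of 24 members with a principal transcript under 1000 bases, 19 had a positive change (79.2%, median 0.12), and of 9 with 4000 bases or more 3 did (33.3%, median -0.042). The shares over all protein-coding genes tested were 72.0% (median 0.087) and 41.5% (median -0.029). Spearman's rho of change against length was -0.38 over the 77 members and -0.18 over 11734 protein-coding genes, where genes of 1 fit share all libraries and are not independent. Weighted to the members' lengths, the share positive over all protein-coding genes was 58.6%, which would be 45.1 of 77, beside the 49 observed. With each library left out in turn, the median change of members under 2000 bases ran from 0.018 to 0.089 and that of longer members from -0.027 to 0.061, and over all protein-coding genes the ranges were 0.018 to 0.053 and -0.024 to -0.00019. The shorter genes had the higher median in each of the 10 leave-outs in both sets. The 8 members with the smallest p among positive changes had a median length of 884.5 bases and the 8 with the smallest p among negative changes 3764 bases. The part of transcript length in the members' changes was not tested.

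**Figure D5:**
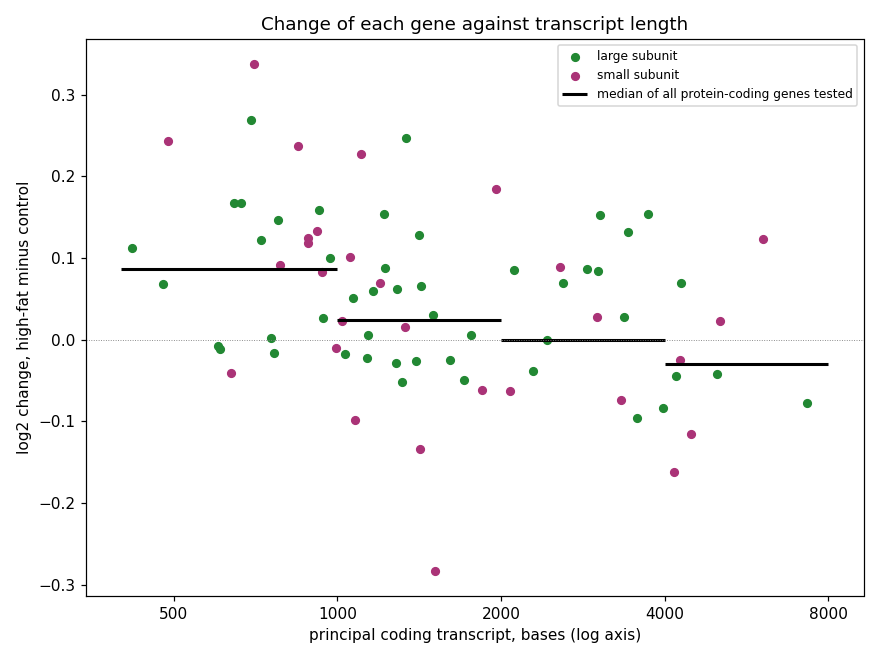
Log2 change of each member tested against the length of its principal coding transcript (log axis), coloured by subunit, with black lines for the medians of all protein-coding genes tested in 4 length classes (0.087, 0.025, 0.00020 and -0.029 from short to long). Members under 1000 bases lie mostly above 0, and the black medians step down in the same direction.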

How the data were processed

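RNA of sorted MC38 cells was measured in 10 libraries, 5 per diet, and per the labels' protocols the kits were RNeasy for RNA and NEBNext Ultra for libraries. The authors deposited raw read counts per gene as whole numbers, with a column for each mouse. Tools named in the submitters' processing notes, without their roles, are BWA 0.7.12, DESeq2 1.24.0, FastQC 0.11.5 and cutadapt 1.15, with builds mm10 and GRCm38. The sources used here do not state the counter, annotation release or strand setting, so reads of overlapping genes cannot be told apart. No sequencing batch is named.

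Gene identifiers were matched to GENCODE M21 (GRCm38) without the version suffix, 53274 of 53379. Counts were tested in R 4.3.3 with edgeR 4.0.16 (TMM normalization, filterByExpr by diet, robust quasi-likelihood fit with diet as the only term, two-sided, Benjamini-Hochberg over 14337 genes, threshold 0.05). The procedure was tested on simulated data. CPM are TMM-scaled, and log2 CPM use a prior count of 2. The SE is the absolute change over the square root of the F statistic. Alternatives were DESeq2 1.42.0, limma-voom 3.58.1, other size factors, no filter, library size as a covariate, a replicate block and each library left out. No 2 libraries agreed within sampling noise (lowest chi-square per degree of freedom 5.57), so all count as replicates. Totals differ little between libraries, and 3 counts, the limit a count of 0 allows, are 0.161 to 0.182 CPM. Such limits cover counting error only.

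Named members were the 8 with the smallest p in each direction (mean of at least 1 CPM), the 2 highest and lowest per kilobase in each subunit, and 7 fixed for their place or function, Mrps36 among them. In each companion list they were the 3 with the smallest p and a few fixed genes. The members and lists were chosen with earlier results of these data known.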

Additional observations from a re-analysis of the deposited data

Results flagged for a closer look

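Single libraries stood apart for 2 of the 60 groups of 5 looked at, where chance alone picks out about 1 group in 20. The first was Mrpl35 at 47.7 CPM in high-fat library 5, against 35.01 to 37.8 CPM in the other 4 high-fat libraries. The second was Mrps21 at 39.6 CPM in control library 5, against 30.3 to 32.4 CPM in the other 4 controls. In each case the gap to the nearest library took more than 0.71 of the group's range, the value used for 5 samples.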

How the results depend on the processing

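No member was called under any alternative run, and the adjusted p of the 26 named members tested ran from 0.137 to 1.00 over them. Over all genes the count of calls moved from 9 to 326 with DESeq2 on 29047 genes without the filter (295 among the 14337 tested), 5 with limma-voom, 53 with no filter, 0 with library size as a covariate, 16 with the replicate block, 1 to 27 with 1 library left out and 276 without control libraries 3 and 4 (chosen after the data were seen). The difference of the subunit medians is not stable: it was 0.00081 with library size as a covariate, -0.0066 without control libraries 3 and 4 and -0.032 to 0.030 with 1 library left out, where it was negative without control 2, high-fat 3, 4 or 5. The large subunit median ran from -0.029 (without high-fat 5) to 0.079, and the small one from 0.0031 to 0.083. Positive changes numbered 23 to 43 in the large and 15 to 21 in the small subunit, and members with the larger high-fat SD 61 to 75. Without high-fat 5 the large subunit count was 23 of 48. With library size as a covariate the change was 0.047 for Mrpl12, 0.015 for Mrps18b and 0.018 for Mrps18c. With 1 library left out it ran from -0.17 to 0.019 for Mrpl12 from -0.10 to 0.013 for Mrps18c and from -0.064 to 0.036 for Mrpl54. The cause of these shifts was not tested.

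No pairing of libraries by mouse number was seen. Deviations of same-numbered libraries correlated at 0.225, -0.360, 0.333, -0.073 and 0.147, and 0 of 5 were each other's best match. These values cannot exclude a pairing that the labels do not name. The count columns number the high-fat mice on from the controls, and the labels pair no mice. With the replicate block 0 members were called, and 30 large and 18 small subunit genes had positive changes with medians of 0.042 and 0.027.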
